A study of Arabidopsis thaliana with 27 samples.

Results

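PHAVOLUTA (PHV, AT1G30490) and YABBY5 (YAB5, AT2G26580) are a pair of Arabidopsis thaliana transcription factor genes that act on opposite faces of the leaf. They were taken as the probe sets whose single gene symbol in the platform annotation is PHV or YAB5. Each gene has 1 such probe set, so the pair makes up 2 of 22746 tested probe sets and 2 of 13356 genes with a single-symbol probe set. RNA was hybridised to Affymetrix ATH1 arrays, 27 in all, in 9 groups of 3 biological replicates of at least 9 plants each. Leaf groups (rosette leaves 5 to 8) were the mutants dcl1-7, dcl4-2 and rdr6-15 and the wild type Col-0. Inflorescence groups (stages 1 to 12) were dcl1-7 with the Col-0 arrays labelled as its control (here set B), and dcl4-2 and rdr6-15 with the Col-0 arrays labelled as theirs (here set A). The labels give no treatment, plant age or batch, and no genetic background of the mutants beyond the Col-0 controls named for them. Values are log2 RMA expression summaries, in which a difference of 1 is a 2-fold change.

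The upper (adaxial) and lower (abaxial) faces of a leaf are set by opposing groups of regulators. PHV belongs to the class III homeodomain-leucine zipper (HD-ZIP III) family, which promotes the adaxial side and is cut by the microRNAs miR165 and miR166. Those microRNAs collect on the abaxial side and, like most plant microRNAs, are released from hairpin precursors by DICER-LIKE 1 (DCL1), the enzyme affected in dcl1-7. YAB5 belongs to the YABBY family of zinc-finger and HMG-like proteins, whose vegetative members are expressed on the abaxial side of leaves and whose members FIL, YAB2, YAB3 and YAB5 together promote blade growth. DICER-LIKE 4 (DCL4) and RNA-DEPENDENT RNA POLYMERASE 6 (RDR6), affected in dcl4-2 and rdr6-15, make trans-acting siRNAs, some of which act on the abaxial genes ARF3 and ARF4. dcl1-7 is a partial loss-of-function allele and so keeps some microRNA.

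Within groups, pairs of arrays had correlations of 0.980 to 0.998 over probe sets. The organ labels were checked on markers: AMS, a tapetum regulator, averaged 8.67 ± 0.03 in Col-0 inflorescence set A, 8.07 ± 0.45 in set B and 5.11 ± 0.11 in Col-0 leaf (SD, n = 3 each), and SPT, a carpel gene, averaged 7.31 ± 0.05 in set A, 8.50 ± 0.08 in set B and 5.83 ± 0.16 in leaf. INO, an ovule gene and the other flower marker with a single-symbol probe set, separated the organs less well. Its inflorescence minus leaf difference was 0.28 for set A and 1.01 for set B against Col-0 leaf. In the mutants it was 0.59 in dcl4-2, -0.01 in rdr6-15 and -0.37 in dcl1-7. The 2 photosynthesis markers with a single-symbol probe set, RCA and LHCB4.2, were bright in both organs of Col-0, at group means of 12.93 to 13.85. The Col-0 inflorescence sets stood apart from each other: 10847 probe sets (47.7%) passed the threshold, a Benjamini-Hochberg adjusted p under 0.05 by limma over all probe sets, between set B and set A. The 3' probe sets of the actin, GAPDH and ubiquitin controls exceed the 5' ones more when RNA is broken or incompletely copied. This 3' minus 5' measure was 2.99 to 3.12 on 3 inflorescence arrays (dcl1-7 replicate 3, dcl4-2 replicate 2 and set B replicate 3), against 1.81 to 2.28 on the other 12. Leaf arrays ran at 2.63 to 3.56. The transcripts of DCL1, DCL4 and RDR6 themselves were not analysed here. Array medians were 7.04 to 7.17 in inflorescence and 6.93 to 7.00 in leaf.

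In the leaf of dcl1-7, PHV rose about 2-fold. The dcl1-7 leaf arrays read 9.20, 9.09 and 8.71, against 8.12, 7.96 and 7.94 in Col-0 leaf. All dcl1-7 arrays lay above all Col-0 arrays, as was true of 11% of probe sets. PHV averaged 9.00 ± 0.26 in dcl1-7, against 8.01 ± 0.10 in Col-0 (SD, n = 3 each). The difference was 0.99 (SE 0.13, 95% interval 0.70 to 1.29, limma adjusted p = 0.00132), or 1.99-fold. In this comparison 9.42% of probe sets passed the threshold and 4.18% did so by rising. Only 2.08% of probe sets had a difference of larger size than PHV. In bulk tissue, more cells that express a gene and more of its RNA per cell cannot be told apart.

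YAB5 was also higher in dcl1-7 leaf, by less. Its values were 8.52, 8.64 and 8.82 in dcl1-7 leaf, against 8.19, 8.23 and 8.21 in Col-0 leaf. The groups did not overlap, which was true, with dcl1-7 higher, of 11% of probe sets. YAB5 averaged 8.66 ± 0.15 in dcl1-7, against 8.21 ± 0.02 in Col-0. The difference was 0.45 (SE 0.12, 95% interval 0.19 to 0.72, adjusted p = 0.0375), or 1.37-fold. A difference of larger size was found for 15.2% of probe sets. This call was close to the threshold and was lost in 5 of the 6 fits that each left out 1 array, with an adjusted p of 0.145 without dcl1-7 replicate 3 and 0.0205 without dcl1-7 replicate 1, the fit that kept it.

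**Figure D1:**
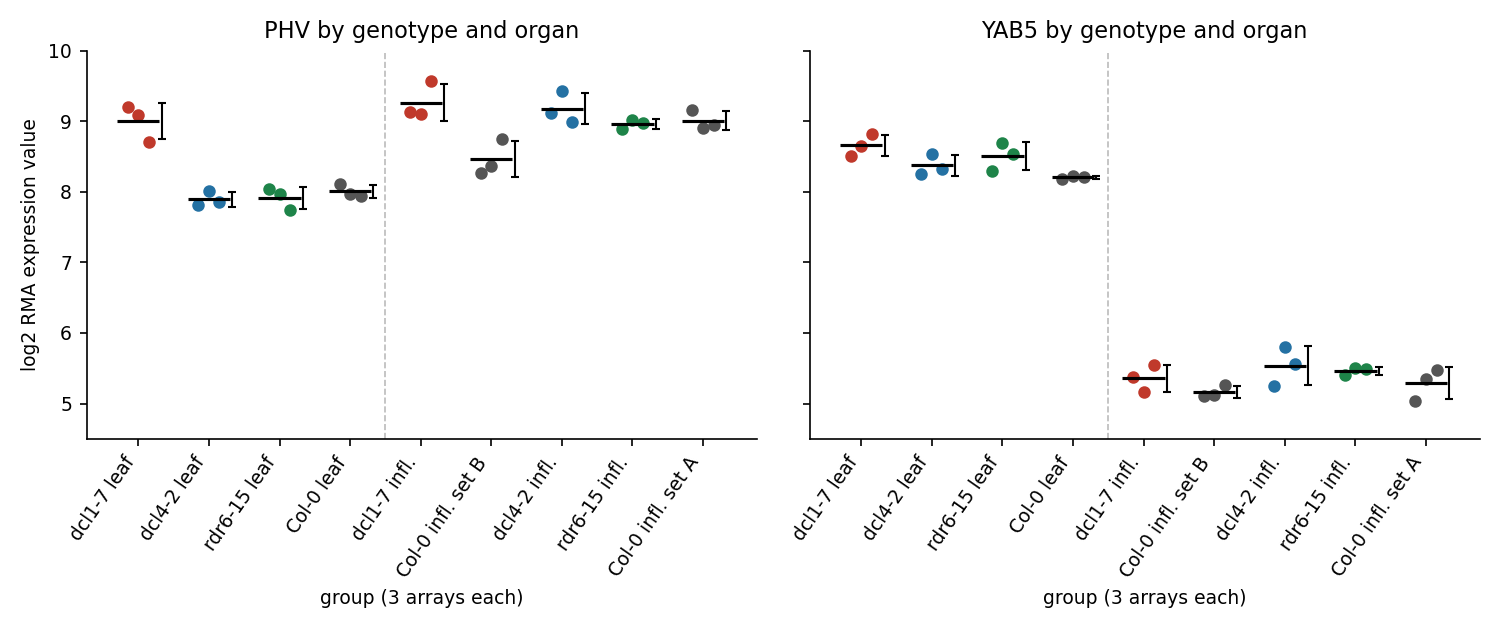
Log2 RMA values (vertical axis) of PHV and YAB5 on each array (points) in the 9 groups, with the group mean (line) and SD (bar beside it, n = 3). PHV in dcl1-7 leaf (8.71 to 9.20) lies above the other leaf groups and among the inflorescence groups, and YAB5 separates leaf (8.19 or more) from inflorescence (5.80 or less) in every genotype.

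The siRNA pathway mutants gave no call for either gene in leaf. PHV read 7.82, 8.01 and 7.86 in dcl4-2 leaf, with a mean difference from Col-0 leaf of -0.11 (SE 0.13, 95% interval -0.40 to 0.18, adjusted p = 1). In rdr6-15 leaf PHV read 8.04, 7.97 and 7.74, a difference of -0.09 (SE 0.13, 95% interval -0.38 to 0.20, adjusted p = 1). Both sets of arrays overlapped with Col-0, and both intervals leave out a 2-fold change in either direction.

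YAB5 in the same leaves lay slightly above Col-0 on every array. The dcl4-2 leaf arrays read 8.26, 8.54 and 8.33, a difference from Col-0 of 0.17 (SE 0.12, 95% interval -0.10 to 0.43, adjusted p = 1). The rdr6-15 leaf arrays read 8.30, 8.69 and 8.53, a difference of 0.30 (SE 0.12, 95% interval 0.03 to 0.56, adjusted p = 1, unadjusted p = 0.0313). Arrays that did not overlap with Col-0 and lay higher were found for 4.93% of probe sets in dcl4-2 leaf and 3.78% in rdr6-15 leaf. All 3 leaf comparisons of YAB5 share the same 3 Col-0 arrays, whose YAB5 values lie between 8.19 and 8.23. Over all probe sets limma called 0 (0%) in dcl4-2 leaf, where 652 had an unadjusted p below 0.05, and 4 (0.0176%) in rdr6-15 leaf.

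Setting the mutants against each other takes no Col-0 array into the difference, although the Col-0 leaf arrays share in the fit's estimate of spread. PHV in dcl1-7 leaf was higher than in dcl4-2 leaf by 1.11 (SE 0.13, adjusted p = 0.000636) and higher than in rdr6-15 leaf by 1.09 (SE 0.13, adjusted p = 0.00125). In these comparisons 10.9% and 6.26% of all probe sets passed. YAB5 did not pass in either: dcl1-7 minus dcl4-2 leaf was 0.28 (SE 0.12, 95% interval 0.02 to 0.55, adjusted p = 0.167) and dcl1-7 minus rdr6-15 leaf was 0.15 (SE 0.12, 95% interval -0.11 to 0.42, adjusted p = 0.551). Between dcl4-2 and rdr6-15 leaf, PHV differed by -0.02 (SE 0.13) and YAB5 by -0.13 (SE 0.12), both with an adjusted p of 1.00, and 0.0132% of probe sets passed.

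In inflorescences, PHV was again higher in dcl1-7 than in the Col-0 arrays labelled as its control. The dcl1-7 inflorescence arrays read 9.12, 9.11 and 9.57, against 8.26, 8.37 and 8.76 in set B. Every dcl1-7 array lay above every set B array, as did 16.5% of probe sets. PHV averaged 9.27 ± 0.26 in dcl1-7 and 8.46 ± 0.26 in set B (SD, n = 3 each), a difference of 0.80 (SE 0.15, 95% interval 0.47 to 1.13, adjusted p = 0.00193), or 1.74-fold. In this comparison 23.4% of probe sets passed, 12.6% by rising, and 5.13% had a difference of larger size than PHV.

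The size of the PHV difference depended on the wild-type set. Set A read 9.17, 8.91 and 8.95, all above the set B values. PHV was lower in set B than in set A (difference -0.55, SE 0.15, adjusted p = 0.00913). Between the sets 25% of probe sets fell, and 29.8% lay lower on every set B array. Against set A the dcl1-7 inflorescence difference was 0.26 (SE 0.15, 95% interval -0.08 to 0.59, adjusted p = 0.234), with 35.2% of probe sets passing. Against both sets pooled it was 0.53 (SE 0.13, adjusted p = 0.0197), with 12.5% of probe sets passing. The labels give both sets the same organ and stages and do not say how they differ.

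Some markers of floral and photosynthetic cells also moved with the choice of control. When dcl1-7 inflorescence was set against set A, 18.1% of probe sets passed as lower in dcl1-7 and 17.2% as higher. Among those lower were the tapetum and anther genes AMS (-0.93, SE 0.30, adjusted p = 0.0295) and SPL (-0.49, SE 0.17, adjusted p = 0.0368). SPT (0.77, SE 0.10, adjusted p = 5.64e-05) and LHCB4.2 (0.46, SE 0.07, adjusted p = 0.000197) were among those higher. Against set B, where 10.8% of probe sets passed as lower, SPT was lower (-0.42, SE 0.10, adjusted p = 0.00809). There AMS (-0.33, SE 0.30), SPL (0.10, SE 0.17) and LHCB4.2 (0.08, SE 0.07) did not pass. RCA, the other photosynthesis marker with a single-symbol probe set, did not pass against set A (-0.10, SE 0.16, adjusted p = 0.693). INO, the other flower marker, was at -0.33 (SE 0.14, adjusted p = 0.0854) against set A and at -1.06 against set B, where it passed. The part of these markers in the PHV difference was not tested.

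YAB5 in inflorescences was dim in every group. It read 5.37, 5.16 and 5.55 in dcl1-7, against 5.11, 5.12 and 5.26 in set B, a difference of 0.20 (SE 0.14, 95% interval -0.11 to 0.50, adjusted p = 0.395). Its values stood no higher than the 32.5 percentile of all probe sets on any inflorescence array, a range in which RMA values respond weakly to transcript level. Against set A the YAB5 difference in dcl1-7 was 0.07 (SE 0.14, adjusted p = 0.756).

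The other inflorescence comparisons gave no call for PHV or YAB5. PHV read 9.12, 9.43 and 8.99 in dcl4-2 (difference from set A 0.17, SE 0.15, adjusted p = 0.689). In rdr6-15 PHV read 8.89, 9.02 and 8.98 (difference -0.05, SE 0.15, adjusted p = 0.919). YAB5 read 5.25, 5.80 and 5.56 in dcl4-2 and 5.40, 5.50 and 5.49 in rdr6-15, against 5.03, 5.35 and 5.48 in set A. The YAB5 differences were 0.25 (SE 0.14, adjusted p = 0.48) in dcl4-2 and 0.18 (SE 0.14, adjusted p = 0.548) in rdr6-15, and the arrays overlapped with set A. Of all probe sets 2.08% passed in dcl4-2 inflorescence and 8.66% in rdr6-15 inflorescence. Between mutants, PHV in dcl1-7 inflorescence differed by 0.09 (SE 0.15, adjusted p = 0.729) from dcl4-2 and by 0.30 (SE 0.15, adjusted p = 0.141) from rdr6-15, where 37.1% and 41.2% of probe sets passed. Between dcl4-2 and rdr6-15 inflorescence, with 15.4% passing, PHV differed by 0.22 (SE 0.15, adjusted p = 0.415) and YAB5 by 0.07 (SE 0.14, adjusted p = 0.822).

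**Figure D2:**
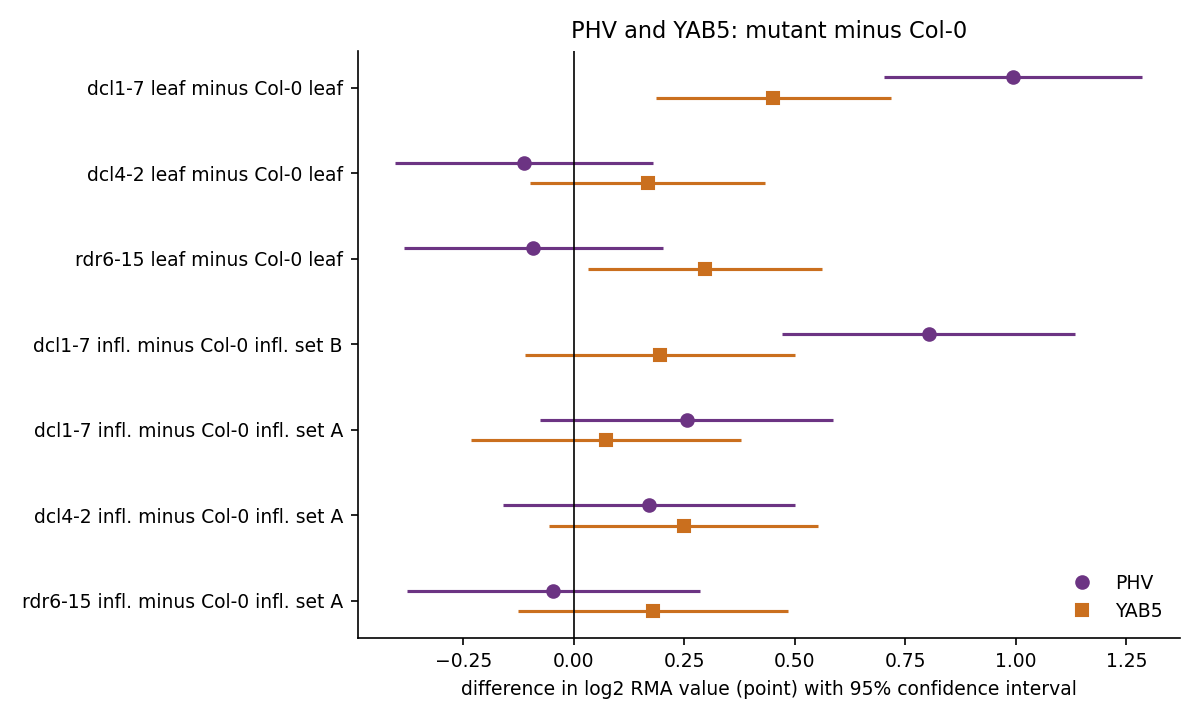
Difference in log2 RMA value between each mutant and Col-0 (points, horizontal axis) with the 95% interval of the fit, for PHV (circles) and YAB5 (squares). The PHV interval lies above 0 in dcl1-7 leaf and in dcl1-7 inflorescence against set B, and includes 0 against set A (-0.08 to 0.59).

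The 3 inflorescence arrays with a high 3' minus 5' measure each had the highest PHV and the highest YAB5 value of their group. For PHV, dcl4-2 replicate 2 stood 0.37 above the mean of the other arrays of its group, dcl1-7 replicate 3 stood 0.45 above and set B replicate 3 stood 0.44 above. For YAB5 the same arrays stood 0.39, 0.28 and 0.14 above. Of all probe sets, 23.1% were highest in their group on all 3 of these arrays. dcl1-7 and set B hold 1 such array each. Without the 3 arrays, a choice made after the data were seen, the PHV difference in dcl1-7 against set B was 0.80 (SE 0.09, adjusted p = 6.68e-05), as large as with them, and against set A it was 0.11 (SE 0.08, adjusted p = 0.359). In leaf the measure was 2.99 to 3.56 in dcl1-7, against 2.86 to 3.09 in Col-0. With it as a covariate, the PHV difference was 0.76 (SE 0.07, adjusted p = 5.96e-06) in dcl1-7 inflorescence against set B and 0.92 (SE 0.16, adjusted p = 0.0104) in dcl1-7 leaf.

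**Figure D3:**
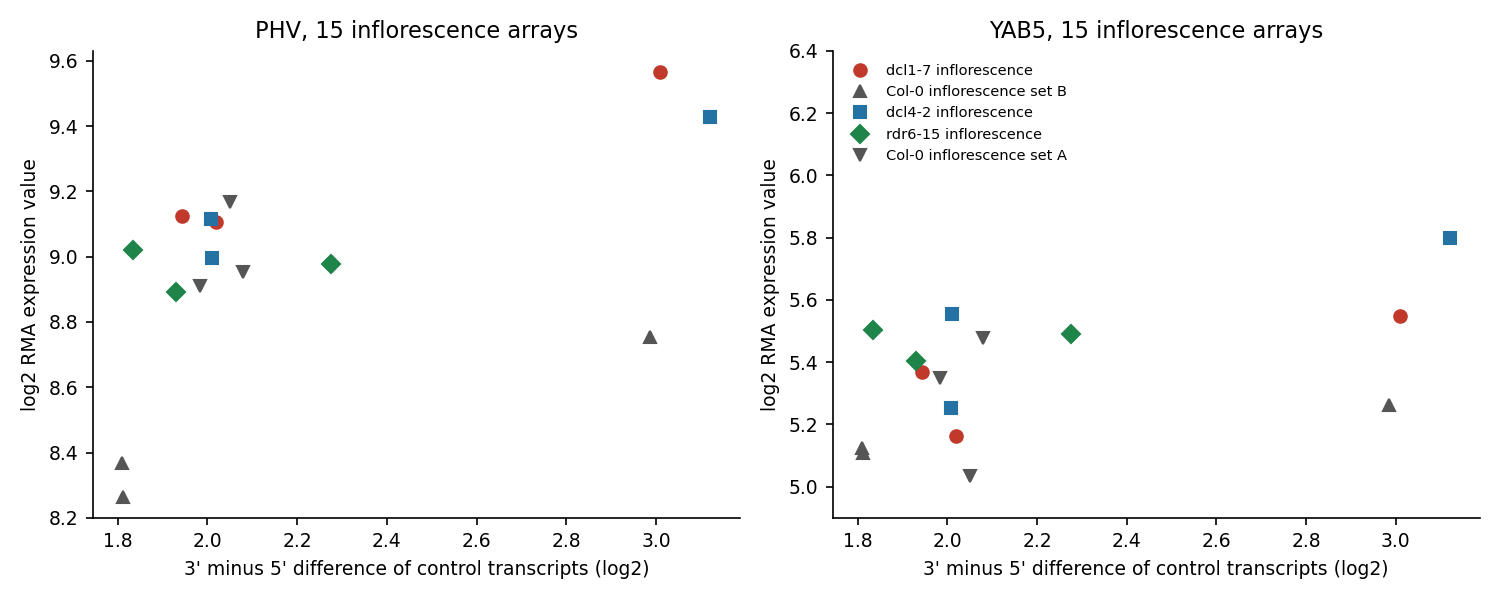
PHV and YAB5 log2 RMA values (vertical axes) against the 3' minus 5' measure of the array's actin, GAPDH and ubiquitin controls (horizontal axes) on the 15 inflorescence arrays, by group. The 3 arrays at 2.99 to 3.12 hold the highest value of their own group for both genes.

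Whether the mutant effects differ between organs was tested as an interaction over all 27 arrays. For PHV the dcl1-7 effect in inflorescence minus that in leaf was -0.19 (SE 0.21, 95% interval -0.62 to 0.24, adjusted p = 0.576), and for YAB5 it was -0.26 (SE 0.19, 95% interval -0.65 to 0.14, adjusted p = 0.38). In this test 22.3% of probe sets passed. With set A as the inflorescence control, which was chosen after the data were seen, the PHV interaction was -0.74 (SE 0.21, adjusted p = 0.0174). The share of probe sets passing in that interaction was not counted. In dcl1-7 inflorescence against set A 35.2% passed, and between the Col-0 sets 47.7% did. The dcl4-2 and rdr6-15 interactions of both genes lay between -0.12 and 0.28, with adjusted p from 0.89 to 0.98, where 0.224% and 2.45% of probe sets passed.

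The genes differed between organs in opposite directions, though organ and any batch of hybridisation cannot be told apart here. YAB5 was lower in inflorescence than in leaf in every genotype: the difference was -3.30 in dcl1-7, -2.84 in dcl4-2, -3.04 in rdr6-15, -2.92 between set A and Col-0 leaf and -3.04 between set B and Col-0 leaf (SE 0.13 each, adjusted p between 2.31e-15 and 2.94e-14). These are differences between RMA values, 7.16-fold to 9.85-fold on the linear scale. YAB5 was dim in inflorescence, where RMA compresses differences, so they may understate the difference in transcript level and are not compared between genotypes. Between set A and Col-0 leaf 60% of probe sets passed, but only 3.71% differed by more than YAB5. The share passing was 65.1% in dcl1-7, 61.3% in dcl4-2, 60.1% in rdr6-15 and 58.9% for set B.

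PHV passed as higher in inflorescence than in leaf in dcl4-2, rdr6-15 and Col-0, and did not pass in dcl1-7. The difference was 1.29 in dcl4-2, 1.05 in rdr6-15 and 1.00 between set A and Col-0 leaf (SE 0.15 each, adjusted p between 1.07e-07 and 3.91e-06). Between set B and Col-0 leaf it was 0.46 (SE 0.15, adjusted p = 0.011), and 0.31 (adjusted p = 0.0917) without set B replicate 3. Many probe sets differed by more than PHV: 22.1% between set A and Col-0 leaf and 45.2% between set B and Col-0 leaf. The share was 15.4% in dcl4-2 and 21.1% in rdr6-15. In dcl1-7 the organ difference of PHV was 0.27 (SE 0.15, 95% interval -0.04 to 0.57, adjusted p = 0.118) and the arrays of the organs overlapped. The interaction, which sets this value against the 0.46 of Col-0 with set B, did not pass (-0.19, SE 0.21, adjusted p = 0.576). With set A, chosen after the data were seen, it passed, as given above. With the 3' minus 5' measure as a covariate the dcl1-7 organ difference was 0.59 (SE 0.13, adjusted p = 0.000395). That measure was 2.63 to 3.56 in leaf and 2.28 or less on most inflorescence arrays, so the fit can hardly separate it from organ.

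Ordered by mean, PHV ran from dcl1-7 inflorescence (9.27) through dcl4-2 inflorescence (9.18), Col-0 set A (9.01), dcl1-7 leaf (9.00) and rdr6-15 inflorescence (8.96) to Col-0 set B (8.46), Col-0 leaf (8.01), rdr6-15 leaf (7.91) and dcl4-2 leaf (7.89). Neighbours in this order had overlapping arrays, except rdr6-15 inflorescence with set B and set B with Col-0 leaf. YAB5 ran from dcl1-7 leaf (8.66) through rdr6-15 leaf (8.51), dcl4-2 leaf (8.38) and Col-0 leaf (8.21) to dcl4-2 (5.54), rdr6-15 (5.47) and dcl1-7 inflorescence (5.36), set A (5.29) and set B (5.16). Here the neighbours without overlap were dcl4-2 leaf with Col-0 leaf, and Col-0 leaf with dcl4-2 inflorescence.

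Within an array, PHV shifted relative to YAB5 in dcl1-7 by 0.54 in leaf (exact permutation test, two-sided, p = 0.2, 3 against 3 arrays) and by 0.61 in inflorescence against set B (exact p = 0.1). The smallest p this design allows is 0.1. PHV minus YAB5 averaged 3.91 in dcl1-7 inflorescence, 3.30 in set B and 3.72 in set A, so the inflorescence shift depended on the control. The dcl1-7 shift against set A was not tested. YAB5 was dim in every inflorescence group, where RMA compresses differences. In dcl4-2 leaf the shift was -0.28 (exact p = 0.1) and in rdr6-15 leaf -0.39 (exact p = 0.3). In inflorescence it was -0.08 (exact p = 0.8) in dcl4-2 and -0.23 (exact p = 0.4) in rdr6-15. With 3 against 3 arrays the test could not reach a p under 0.05, so these shifts are estimates and do not show that the genes changed unequally.

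**Figure D4:**
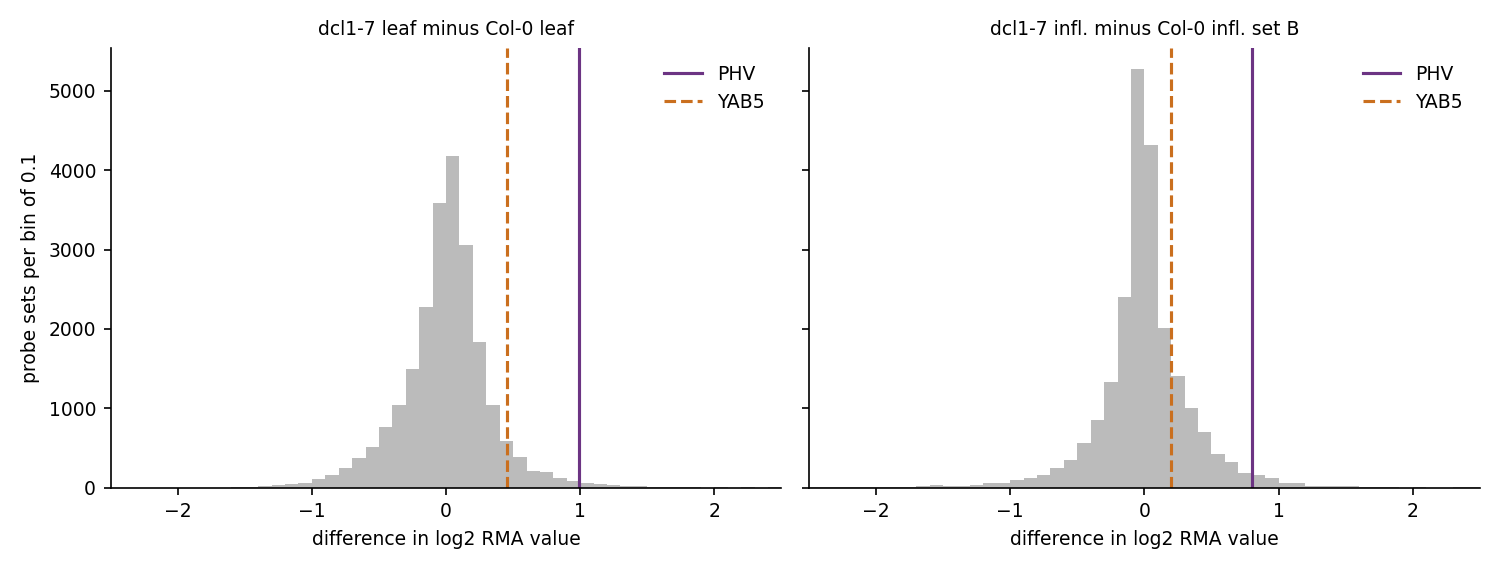
Number of probe sets (vertical axis, bins of 0.1) by difference in log2 RMA value (horizontal axis, shown from -2.5 to 2.5) in dcl1-7 leaf against Col-0 leaf and dcl1-7 inflorescence against set B. The lines mark PHV (0.99 and 0.80), in the upper tail of both, and YAB5 (0.45 and 0.20).

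Genes called measured here are those with a single-symbol probe set, and few other polarity genes had one. PHV was the only one of 8 listed HD-ZIP III and adaxial genes, so its homologues PHB and REV were not analysed here. Of 11 listed abaxial genes YAB5 and YAB3 were measured. YAB3, the close relative of FIL, averaged 7.83 ± 0.14 in dcl1-7 leaf, against 7.96 ± 0.18 for Col-0 leaves, a difference of -0.13 (SE 0.12, adjusted p = 0.569). In dcl1-7 inflorescence YAB3 averaged 8.18 ± 0.19, against 8.08 ± 0.10 in set B, a difference of 0.09 (SE 0.11, adjusted p = 0.622). YAB3 passed in neither comparison. Its organ difference, inflorescence minus leaf, was 0.35 (SE 0.11, adjusted p = 0.00942) in dcl1-7, 0.73 (SE 0.11, adjusted p = 5.3e-06) in rdr6-15 and 0.36 (SE 0.11, adjusted p = 0.00746) between set A and Col-0 leaf. It did not pass in dcl4-2 (0.14, SE 0.11, adjusted p = 0.285) or between set B and Col-0 leaf (0.12, SE 0.11, adjusted p = 0.346).

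INO, a YABBY gene of the outer ovule integument, fell in dcl1-7 inflorescence by 1.06 (SE 0.14) to 6.38 ± 0.16, against 7.44 ± 0.27 in set B (adjusted p = 0.000123). Against set A the INO difference was -0.33 (SE 0.14, adjusted p = 0.0854). INO was 6.71 ± 0.22 in set A, and set B exceeded set A by 0.73 (SE 0.14, adjusted p = 0.000649), the opposite sign to PHV. In dcl1-7 leaf INO was at 6.75, against 6.43 in Col-0 leaf (difference 0.32, SE 0.15, adjusted p = 0.221). Of genes listed as targets of HD-ZIP III or KANADI factors 2 of 14 were measured: HAT2, an HD-ZIP II gene, and WRKY53, a senescence regulator. Neither passed in dcl1-7 leaf (HAT2 -0.05, SE 0.36, and WRKY53 -0.06, SE 0.37). WRKY53 was lowest on replicate 3 in every leaf group, at 10.74 to 11.46, against 11.86 to 12.23 on the other leaf arrays. HAT2 was lowest on replicate 3 in every leaf group except dcl1-7. A shift shared between groups by replicate number was not tested, and the unpaired fit would leave it in these SEs. In dcl1-7 inflorescence against set B both fell, HAT2 by 0.55 (SE 0.08) and WRKY53 by 1.64 (SE 0.22), where 10.8% of probe sets fell. Both were higher in set B than in set A, HAT2 by 1.33 (SE 0.08) and WRKY53 by 0.62 (SE 0.22). Against set A the direction of HAT2 in dcl1-7 turned, to 0.78 (SE 0.08, adjusted p = 1.19e-05), while WRKY53 was still lower (-1.02, SE 0.22, adjusted p = 0.00286), as were 18.1% of probe sets. WRKY53 was also lower in dcl4-2 (-1.33, SE 0.22, adjusted p = 0.00879) and rdr6-15 inflorescence (-0.92, SE 0.22, adjusted p = 0.0227) than in set A.

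Of 24 listed leaf growth regulators 3 were measured, and 0 passed in dcl1-7 leaf, where 9.42% of probe sets did. In dcl1-7 inflorescence 1 of 3 rose, where 12.6% of probe sets rose against set B and 17.2% against set A. Against set B, JAG, which promotes growth of lateral organs, rose by 0.35 (SE 0.08, adjusted p = 0.00948; 0.41, adjusted p = 0.00208, against set A), while NUB (-0.10, SE 0.10) and AN (0.15, SE 0.07) did not pass. LAS, the 1 measured of 12 boundary and KNOX genes, differed by 0.06 (SE 0.14) in dcl1-7 leaf and by -0.05 (SE 0.11) in dcl1-7 inflorescence, passing in neither. Of the small RNA factors SE and AGO7 were measured, 2 of 8 listed. SE, a partner of DCL1, passed in neither organ of dcl1-7 with the labelled controls, and was lower in dcl1-7 inflorescence than in set A (-0.37, SE 0.08, adjusted p = 0.00314). AGO7, the Argonaute that starts production of the siRNAs against ARF3 and ARF4, rose in dcl1-7 inflorescence against set B by 0.51 (SE 0.11, adjusted p = 0.00369) and was lower in set B than in set A (-0.66, SE 0.11). The AGO7 difference between dcl1-7 and set A was -0.15 (SE 0.11, adjusted p = 0.341).

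Among other microRNA targets, 7 of 62 listed genes had a single-symbol probe set. The list was drawn up with earlier results of these data known, so its counts are a description and not independent support. In dcl1-7 leaf 5 of 7 rose and 0 fell, with a median difference of 0.81, against a median of 0.015 over all probe sets tested, of which 4.18% rose. PHV, at 0.99, lay between ARPN (0.81, SE 0.21), a plantacyanin targeted by miR408, and AGL16 (1.02, SE 0.15), a MADS-box gene targeted by miR824. In dcl1-7 inflorescence against set B the same count, 5 of 7, rose, with a median of 0.58 against -0.006 over all probe sets, of which 12.6% rose. AGL16 rose by 2.04 (SE 0.15), ARPN by 1.39 (SE 0.10) and the ATP sulfurylase APS4 by 0.92 (SE 0.17), more than PHV. APS3 rose by 0.58 (SE 0.09) and CCS, a copper chaperone targeted by miR398, by 0.48 (SE 0.13), less than PHV. Against set A, 4 of 7 rose, where 17.2% of probe sets did. AGL16 (2.43, SE 0.15), APS4 (0.94, SE 0.17), CCS (0.86, SE 0.13) and ARPN (0.42, SE 0.10) were called, while APS3 was at -0.20 (SE 0.09, adjusted p = 0.116) and, like PHV, was not. In dcl4-2 leaf, where 0% of all probe sets passed, and rdr6-15 leaf, where 0.0176% did, 0 of 7 passed, as for PHV. With so few calls among all probe sets, these leaf counts cannot set microRNA targets apart from other genes. In dcl4-2 inflorescence 1 of 7 (CCS, -0.63, SE 0.13) fell and 0 rose, where 2.08% of probe sets passed. In rdr6-15 inflorescence 2 of 7 (APS4, -0.93, SE 0.17, and ARPN, -0.68, SE 0.10) fell and 0 rose, where 8.66% passed.

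**Figure D5:**
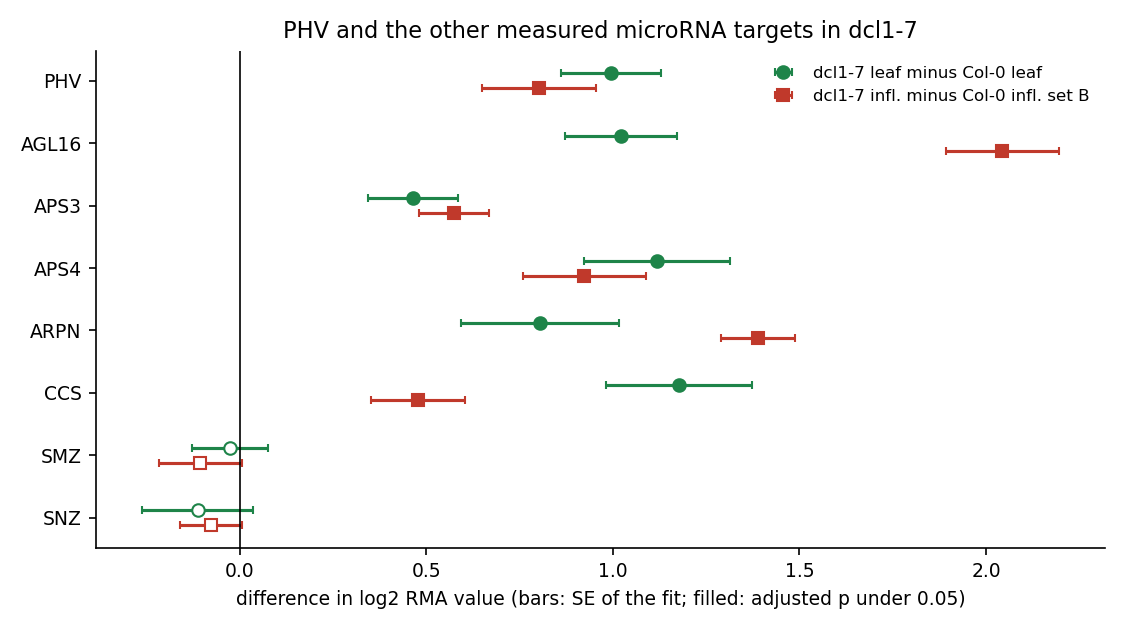
Difference in log2 RMA value (horizontal axis, bars are SE of the fit) of PHV and the 7 other measured microRNA targets in dcl1-7 leaf against Col-0 leaf (circles) and dcl1-7 inflorescence against set B (squares). Filled symbols passed the threshold: PHV and 5 others in both organs, with SMZ and SNZ open.

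Genes whose 9 group means followed those of PHV most closely, among 8807 single-symbol probe sets with a span of at least 0.5, were AT1G52000 (Pearson r = 0.954), AT1G62870 (0.954), AT4G15930 (0.951) and AT5G62350 (0.951). Spearman rho for these was 0.80, 0.97, 0.90 and 0.78. For YAB5 they were PUB23, a ubiquitin ligase (r = 0.997), MYR2, a MYB-related factor (0.997), AT3G05320 (0.997) and AT5G44390 (0.996). The 9 points of YAB5 form a leaf and an inflorescence cluster, so its values of r describe the organ difference. Ranking by rho shared 1 of 4 genes for PHV and 0 of 4 for YAB5, and ranking over all 27 arrays shared 2 and 0.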

How the data were processed

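The authors' deposited table gives a log2 expression value for each probe set on each array. RMA is the tool named in the submitters' processing notes. The log2 scale was read from the values. Neither its version nor whether leaf and inflorescence arrays were normalized jointly was stated. RMA compresses differences of dim probe sets and equalizes arrays. Arrays carry no read depth, so the number of arrays limits precision.

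The 64 control probe sets were left out and no filter on signal was applied. Names come from GEO's platform annotation (1 symbol for 13513 probe sets, several for 503, none for 8730) and from RefSeq for TAIR10.1 (loci only). No sequence was used. R 4.3.3 with limma 3.58.1 fitted group means (lmFit, then eBayes) for 12 leaf arrays, for 15 inflorescence arrays, and over all 27 for organ differences and interactions. Adjusted p-values are Benjamini-Hochberg over all 22746 probe sets. The fit was tested on simulated data. Replicate numbers follow accession order. The labels do not say whether they pair arrays between groups, and no fit paired them.

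Named genes are PHV, YAB5, listed genes and the 4 genes most like each by Pearson correlation. The listed genes named are mainly those that passed (up to 4 per list and comparison), and the others were chosen after their values were seen. Members and lists were chosen with earlier results of these data known. Alternatives changed the arrays fitted, normalization, filter, variance model, weights, covariate, control set and replicates.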

Additional observations from a re-analysis of the deposited data

How the results depend on the processing

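PHV in dcl1-7 leaf and in dcl1-7 inflorescence against set B kept direction and call under every alternative run with the labelled control. Without 1 array each these ran from 0.90 to 1.14 in leaf and from 0.65 to 0.95 in inflorescence. Against set A the inflorescence call ended (0.26). YAB5 in dcl1-7 leaf (0.45) lost its call with only the 2 groups fitted (0.45, adjusted p = 0.0751), arrays centred on their medians (0.44, 0.0586), quantile normalization (0.47, 0.052), trended robust eBayes (0.45, 0.0572) or the 3' minus 5' covariate (0.53, 0.0546), and ran from 0.37 to 0.52 without 1 array each. The dcl1-7 interaction of PHV passed with set A (-0.74), and its dcl1-7 organ difference passed with the covariate (0.59). The cause was not tested.

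Among PHV and YAB5 values, signs changed for uncalled ones near 0. Of the other listed genes, the control set turned a call in dcl1-7 inflorescence for HAT2 (-0.55 against set B, 0.78 against set A) and SPT (-0.42 and 0.77), while AGO7 (0.51 and -0.15) and APS3 (0.58 and -0.20) changed sign and lost the call. The PHV rdr6-15 interaction was -0.0014 with quantile normalization and -0.043 to 0.12 without 1 array. YAB5 in dcl4-2 minus rdr6-15 inflorescence was -0.043 with array weights, -0.015 with the covariate, and -0.061 without the 3 arrays of high 3' minus 5' measure (-0.061 to 0.21 without 1 array). The YAB5 dcl4-2 interaction was -0.05 without those 3 arrays (-0.05 to 0.22 without 1 array). Without 1 array, PHV ran from -0.11 to 0.041 in dcl4-2 minus rdr6-15 leaf, -0.10 to 0.032 in rdr6-15 inflorescence minus set A and -0.065 to 0.21 in dcl1-7 minus dcl4-2 inflorescence. The PHV minus YAB5 shift in dcl4-2 inflorescence ran from -0.20 to 0.13. PHV in set B minus Col-0 leaf ran from 0.31 to 0.56 and lost its call without set B replicate 3 (adjusted p = 0.0917). The dim-probe filter removed YAB5 in inflorescence.

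Counts of probe sets passing moved more. The 2142 in dcl1-7 leaf were 4055 with all 27 arrays, 970 with the 2 groups, 3547 with weights, 1322 with the covariate, and 1043 to 3842 without 1 array. The 5314 in dcl1-7 inflorescence were 3303 with the 2 groups, 8010 against set A and 2841 against both sets. The 473 in dcl4-2 inflorescence ran from 157 to 1432 and the 1969 in rdr6-15 inflorescence from 1035 to 5254. In leaf, dcl4-2 had 0 to 19 and rdr6-15 1 to 16. No paired analysis was possible because the labels give no replicate numbers shared between groups.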
